A study of Mus musculus with 31 samples.

Results

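The voltage-gated sodium channel genes described here are 8 genes fixed by name: the alpha subunit genes Scn1a, Scn2a, Scn3a, Scn8a and Scn9a, and the beta subunit genes Scn2b, Scn3b and Scn4b. They are 8 of 25446 genes that could be assembled from the transcripts, and all 8 were among the 14883 genes that passed a filter on low counts. RNA-seq of polyadenylated RNA was made from the thalamus of 31 mice at postnatal day 90. The groups were offspring of mothers reared in social isolation (SIR), with 7 males and 8 females, and offspring of control mothers, with 8 males and 8 females. Strain and litter are not given in the sources used here, and any litter mates were treated as independent animals. No genetic change or treatment of the offspring themselves is named. The numbers in the library names are all lower for SIR than for control libraries; the labels do not say what they stand for, and anything that went with them cannot be told apart from maternal housing.

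Alpha subunits form the pore through which sodium enters a neuron and carry the rising phase of the action potential. Beta subunits are small membrane proteins with an immunoglobulin-like domain that set the gating, surface level and placement of the channels. In the adult brain Scn1a and Scn8a products are known from the axon initial segment and nodes of Ranvier. Those of Scn2a are known from unmyelinated axons and initial segments, those of Scn3a mostly from embryonic brain, and those of Scn9a from sensory and some hypothalamic neurons. The thalamus sends its output from relay neurons that fire in bursts or in single spikes, and fast sodium currents carry the spikes in both modes.

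Library totals ranged from 13004178 to 25741879 estimated counts, with a median of 23281571. The neuron genes of the thalamus were present throughout: in counts-per-million (CPM), the summed level of 7 relay neuron markers ran from 1931.8 to 3698.7 CPM. None of these 7 markers failed the filter on low counts. Markers of neighbouring tissue differed between libraries. The summed level of 5 measured hypothalamus markers ran from 4.65 CPM in SIR male 14 to 407.9 CPM in another SIR male, and that of 6 choroid plexus markers from 9.97 to 1773.9 CPM, the highest in control female 20. In SIR female 5, as labelled, the Y-linked gene Ddx3y stood at 41.4 CPM, where males had 31.7 to 50.7 CPM and the other 15 female libraries 0 to 0.0477 CPM. The Y-linked genes Eif2s3y, Uty and Kdm5d also lay within the male range in that library. The X-linked gene Eif2s3x stood there at 147 CPM, where males had 139 to 167 CPM and the other females 219 to 251 CPM. The library thus had the sex-linked gene levels of a male. It was kept under its label as a female, and sex below means labelled sex.

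Beside the values, a few stretches of the transcript models of GENCODE show how alike Scn2a and Scn8a are in a single exon and how a model can fail to make a channel. Coding exon 5 encodes part of a voltage sensor, and it is shown from Scn2a-205 (chromosome 2), the model with the male log2 fold change farthest from 0 among the 3 Scn2a models described below, and from Scn8a-205 (chromosome 15), the main model of Scn8a. The version of the exon shown is absent from the models Scn2a-201 and Scn8a-201. Capitals mark the 7 bases at which the exons of Scn2a-205 and Scn8a-205 differ, and they shared 92.4% of their 92 bases. The other alpha subunit genes and the rest of these models were not compared.
Scn2a-205 exon 5: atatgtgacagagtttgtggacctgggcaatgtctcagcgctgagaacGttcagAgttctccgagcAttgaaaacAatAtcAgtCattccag
Scn8a-205 exon 5: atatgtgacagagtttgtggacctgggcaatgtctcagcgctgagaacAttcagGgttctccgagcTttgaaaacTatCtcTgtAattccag
Scn1a-208 (chromosome 2) holds a 64-base exon and is annotated as a target of nonsense-mediated decay, the RNA surveillance that removes messages with an early stop; an exon of this kind lowers the yield of channel protein.
Scn1a-208 added exon: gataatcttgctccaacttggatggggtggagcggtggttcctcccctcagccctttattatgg

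The share of the 64-base exon was taken from the transcripts-per-million (TPM) of the models that hold it or skip it. Scn1a-208 alone holds it, and 5 models skip it. The TPM come from a division of reads between models, whose error is not in these values, and reads on the exon itself were not counted. The model with the exon took 1.76% ± 1.11 (SD, n = 7) in SIR males and 1.46% ± 1.07 (n = 8) in control males, and 1.26% ± 0.79 in SIR females and 1.03% ± 0.29 in control females (n = 8 each). The ranges overlapped in both sexes, at 0.3% to 3.13% in SIR males and 0.42% to 3.79% in control males, and at 0.38% to 2.87% in SIR females and 0.63% to 1.39% in control females. The difference was 0.31 percentage points in males (2-sided exact permutation test, p = 0.592) and 0.22 points in females (exact p = 0.515), with an adjusted p of 0.592 for both over the 2 comparisons made. With single libraries left out the male difference ran from 0.079 points (without SIR male 13) to 0.64 points (without control male 19).

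Levels between genes were compared per length, in TPM. Over all 31 libraries Scn2b was highest at 168.2 ± 10.8 TPM (SD), followed by Scn1a at 100.6 ± 16.2, Scn8a at 72.0 ± 8.34, Scn4b at 70.1 ± 13.2, Scn2a at 61.7 ± 10.6 and Scn3b at 45.7 ± 9.74. Scn3a (8.82 ± 2.43 TPM) and Scn9a (2.54 ± 1.26 TPM) were far lower. Each gene stood above the next in 31 of 31 libraries, apart from Scn8a over Scn4b (17 of 31) and Scn4b over Scn2a (20 of 31), whose order is not set beyond the spread.

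Within the alpha subunits, Scn1a made up 40.8% ± 3.38 of the summed TPM, Scn8a 29.4% ± 2.32, Scn2a 25.1% ± 3.5, Scn3a 3.62% ± 1.05 and Scn9a 1.05% ± 0.549 (SD, n = 31). The summed alpha level was 214.5 ± 26.2 TPM in SIR males and 257.7 ± 20.6 TPM in control males, and 242.8 ± 15.9 TPM in SIR females and 263.3 ± 18.9 TPM in control females. In bulk tissue, fewer cells of a type and less RNA per cell cannot be told apart. The beta level, summed over Scn2b, Scn3b and Scn4b, was 275.8 ± 22.4 TPM in SIR males, 287.0 ± 13 in control males, 283.7 ± 15.1 in SIR females and 288.4 ± 14.2 in control females. Scn2b was the steadiest gene over libraries, with a coefficient of variation of its CPM of 6.45%, and Scn9a the most variable at 46.9%.

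**Figure D1:**
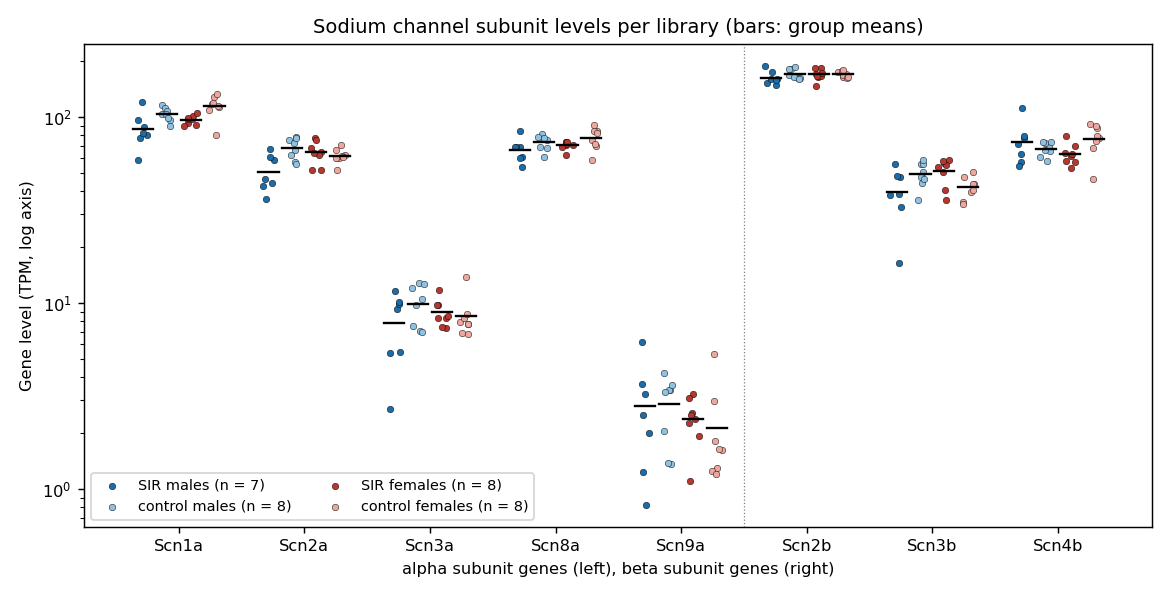
Level of each sodium channel gene (TPM, log axis) with a point per library and a bar at the group mean, alpha subunit genes left and beta subunit genes right of the dotted line. Scn2b is highest with little spread, Scn3a and Scn9a are lowest with the widest spread on the log axis, and a SIR male lies lowest in Scn2a, Scn3a, Scn9a and Scn3b.

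In males, Scn2a was lower in SIR offspring, and it was the only gene of the 8 that passed the edgeR test there. Scn2a, whose channel carries spikes in unmyelinated axons, had a lowest, median and highest level of 137.1, 173.3 and 215.2 CPM in 7 SIR males, against 194.9, 240.3 and 278.8 CPM in 8 control males. All 7 SIR males lay below the control median and 4 below the lowest control, while the ranges overlapped. Scn2a fell by 0.38 on the log2 scale (SE 0.09, 1.3-fold lower, edgeR adjusted p = 0.0316). Of all genes tested, 1.33% were called in males, 1.05% lower and 0.282% higher, beside 1 of the 8 sodium channel genes.

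The male call of Scn2a is close to the threshold. Leaving out each of the 15 male libraries in turn ended it in 8 cases, with adjusted p-values of 0.0506 (without SIR male 14) to 0.0975 (without control male 25); the other 6 were SIR males 1, 8 and 15 and control males 19, 21 and 22. The log2 fold change stayed between -0.42 and -0.31 throughout. A fit on the male libraries alone gave an adjusted p of 0.0783, a fit with no filter on low counts 0.0508 and a fit with the trend with transcript length removed 0.124 (log2 fold change -0.28).

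Markers of other cells moved in the same comparison. Of 10 oligodendrocyte markers, Mbp and Cnp passed as higher in SIR males, all 10 had positive log2 fold changes, and their summed level was 8266.8 to 10674.4 CPM in SIR males and 7381.7 to 10319.3 CPM in control males. Olig1, of the 4 oligodendrocyte precursor markers, also passed as higher in SIR males. Of 7 relay neuron markers Necab1 passed as lower, and the summed level ran from 2184.1 to 3667.1 CPM in SIR males and from 2597.3 to 3698.7 CPM in control males. Endothelial markers, whose summed level had the closest negative correlation with Scn2a over the 31 libraries (Pearson r = -0.67), stood at 273.4 to 361.4 CPM in SIR males and 244.6 to 356.5 CPM in control males, and 0 of 5 passed. Their part in the Scn2a difference was not tested.

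The other male values did not pass. Scn3b, a beta subunit known to slow inactivation, averaged 75.0 ± 19.8 CPM in SIR males and 94.0 ± 14.3 CPM in control males (log2 fold change -0.33 ± 0.14 SE, edgeR adjusted p = 0.209), and without SIR male 14 its log2 fold change was -0.20. Scn1a stood at 284.4 ± 64.2 CPM in SIR males and 329.4 ± 17.8 CPM in control males, with a log2 fold change of -0.21 ± 0.10 (edgeR adjusted p = 0.266). Scn4b, the beta subunit linked to resurgent current, had a log2 fold change of 0.16, Scn3a -0.29, Scn9a -0.12, Scn8a -0.06 and Scn2b -0.04. Several of these rest on SIR male 14: without it Scn4b stood at 0.035, Scn3a at -0.135, Scn9a at 0.056, Scn8a at -0.129, Scn2b at -0.072 and Scn1a at -0.308 (edgeR adjusted p 0.0571 to 0.951). The coefficient of variation of CPM was higher in SIR males than in control males for all 8 genes. For Scn1a it was 22.6% in SIR males and 5.39% in control males, and for Scn4b 27.7% in SIR males and 10% in control males. Without SIR male 14 it was higher in SIR males for 6 of 8 genes: Scn2a had 10.8% in SIR males and 12.9% in control males and Scn3b 12.2% in SIR males and 15.2% in control males, while Scn4b in SIR males had 18.1%. The median log2 fold change was -0.17 over the 8 genes and -0.001 over all genes tested.

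In females none of the 8 genes passed in edgeR, with 4.62% of all genes called (2.24% lower, 2.39% higher); 3 of the 8 had an unadjusted p under 0.05, as had 20% of all genes. Scn2a stood at 187.8 to 262.6 CPM (median 226.2) in SIR females and 172.2 to 234.2 CPM (median 205.4) in control females. Of 8 SIR females, 6 lay above the control median and 2 above the highest control, with a log2 fold change of 0.11 ± 0.09 (SE, edgeR adjusted p = 0.495). Scn3b averaged 98.0 ± 12.7 CPM in SIR females and 80.1 ± 9.97 CPM in control females (log2 fold change 0.29 ± 0.13, edgeR adjusted p = 0.207), and 6 of 8 SIR females exceeded the highest control. Scn4b averaged 191.2 ± 28.8 CPM in SIR females and 233.1 ± 46.5 CPM in control females (-0.29 ± 0.13, edgeR adjusted p = 0.227). Scn1a averaged 310.8 ± 19.6 CPM in SIR females and 369.3 ± 57.1 CPM in control females (-0.25 ± 0.10, edgeR adjusted p = 0.136), and all 8 SIR females lay below the control median. Without control female 20, whose Scn1a was the lowest of its group at 247.7 CPM, Scn1a passed (log2 fold change -0.31, edgeR adjusted p = 0.0273), and limma-voom with sample weights called 3 of the 8 genes in females, Scn1a, Scn3b and Scn4b, where DESeq2 called 0. Of 10 oligodendrocyte markers 5 were called lower in SIR females. The 10 summed to 7602.2 to 10731.3 CPM in SIR females and 10131.2 to 12232.0 CPM in control females. The summed hypothalamus markers ran from 56.7 to 340.2 CPM (median 204.2) in SIR females and from 13.5 to 349.5 CPM (median 45.9) in control females. None of the 5 measured passed, 2 with positive and 3 with negative log2 fold changes. Of 7 relay neuron markers Gbx2 and Necab1 were called higher. Of 4 measured markers of midbrain and monoamine neurons Slc6a3 and Pax7 were called lower. Tubb3 (pan-neuronal), Slc1a3 (astrocyte), Tbr1 (cortical or hippocampal) and Gpr151 (habenula) were also called higher, and Acta2 (mural) was called lower. The part of these markers in the female values was not tested.

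The male minus female SIR effect passed for Scn2a, at -0.49 ± 0.12 on the log2 scale (SE, edgeR adjusted p = 0.0244), where 2.84% of all genes were called, 1.75% in this direction and 1.08% in the other. A negative value means that the SIR effect was lower in males than in females. The call held with each of the 31 libraries left out in turn (adjusted p 0.0123 to 0.0481), including SIR female 5 (0.0157). It was lost with effective length offsets (0.0650), on log2(TPM + 1) with limma-trend (0.0918), on log2(TPM + 0.1) (0.0921), and without the 8 libraries whose names carry numbers apart from the rest, replicates 1 to 3 and 27 to 31 (0.0524), with log2 differences of -0.57 to -0.45. Scn3b had a larger difference, -0.62 ± 0.19, that missed the threshold (edgeR adjusted p = 0.0767). It passed with DESeq2 (0.0266), limma-voom (0.0188), without the 2 shallowest libraries (0.0401), without SIR male 4 (0.049) or 14 (0.0497, at -0.49) and without control male 23 (0.0405). Scn4b went the other way at 0.45 ± 0.19 (edgeR adjusted p = 0.246). Scn1a (0.04), Scn8a (0.03) and Scn2b (-0.02) gave differences near 0. In the same comparison 7 of 10 oligodendrocyte markers were called with a positive difference (all 10 positive, median 0.41), as were Olig1 (0.34 ± 0.09 SE) of the precursor markers and Acta2 (0.95 ± 0.19) of the mural markers. The relay neuron markers Gbx2 (-0.95 ± 0.20) and Necab1 (-1.63 ± 0.26) were called with a negative difference, and the summed level of the 7 relay neuron markers was 2476.8 to 3140.7 CPM in SIR females and 1931.8 to 3362.1 CPM in control females. Their part in the Scn2a difference between the sexes was not tested.

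**Figure D2:**
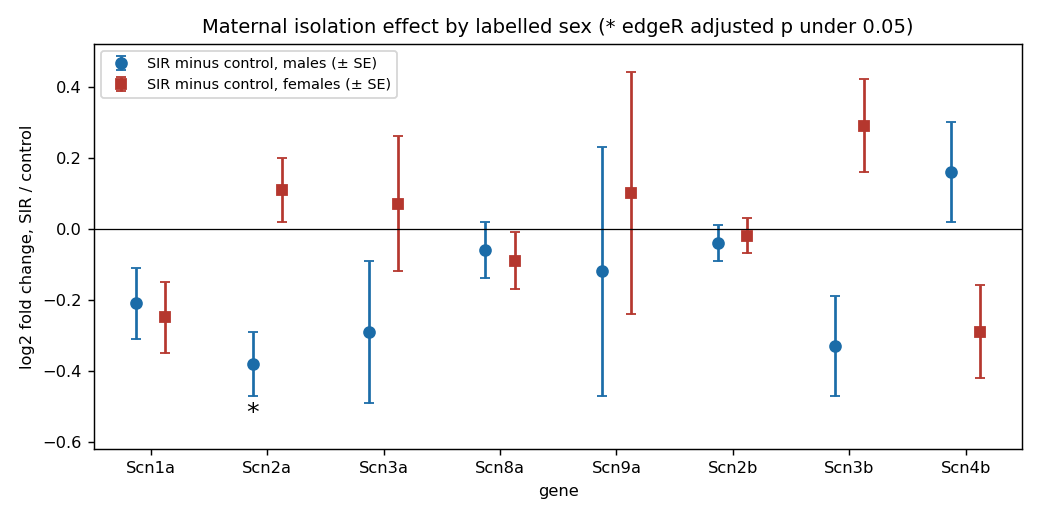
Log2 fold change of SIR over control (vertical axis, ± SE) for each sodium channel gene, males left (circles) and females right (squares) within a gene, with a star at an edgeR adjusted p under 0.05. Only Scn2a in males carries a star; male and female points of Scn2a, Scn3a, Scn9a, Scn3b and Scn4b lie on opposite sides of 0, while those of Scn1a both lie near -0.2.

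Over both sexes none of the 8 genes passed in edgeR, with 4.56% of all genes called (2.80% lower); 2 of the 8 had an unadjusted p under 0.05, as had 22.1% of all genes. All 8 log2 fold changes were negative in the fit as reported, from -0.23 (Scn1a) to -0.01 (Scn9a), but under upper quartile scaling those of Scn9a and Scn3b were positive (0.005 and 0.002), and with the length trend removed those of Scn8a, Scn9a, Scn2b and Scn3b were (0.015 to 0.057). Scn1a, the main alpha subunit gene of these libraries and a gene of inherited epilepsies, came closest, at -0.23 ± 0.07 (SE, edgeR adjusted p = 0.0516). Its levels were 203.4, 293.9 and 402.5 CPM in SIR males (lowest, median, highest), against 299.3, 332.1 and 350.7 CPM in control males. They were 276.5, 307.6 and 339.5 CPM in SIR females, against 247.7, 368.6 and 444.0 CPM in control females. In all, 14 of 15 SIR libraries lay below the control median, and the exception was SIR male 14, at 402.5 CPM. Without that library the adjusted p was 0.00901, without control female 20 it was 0.0146, without SIR female 11 it was 0.0477 and without control male 28 it was 0.0471; DESeq2 gave 0.0200 and the fit without the 8 libraries numbered apart gave 0.387, at a log2 fold change of -0.14.

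None of the 8 genes passed a test by labelled sex in edgeR, where 10.1% of all genes were called (5.65% lower and 4.45% higher in males); 1 of the 8 had an unadjusted p under 0.05, as had 26.6% of all genes, and DESeq2 called 0. The largest male minus female log2 difference was that of Scn9a, at 0.36 ± 0.24 (SE, edgeR adjusted p = 0.364), and Scn1a followed at -0.15 ± 0.07 (edgeR adjusted p = 0.174). Scn1a passed without SIR male 14 (edgeR adjusted p = 0.0275), without control female 20 (0.0447) and with limma-voom (0.0095).

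Over the 31 libraries the 8 genes fell into blocs that rose and fell together, which cut across the alpha and beta classes. Scn1a and Scn8a had a Pearson r of 0.85 of log2 CPM, Scn8a and Scn4b 0.79, and Scn8a and Scn2b 0.73. In the other bloc Scn2a and Scn3b had an r of 0.85, Scn3a and Scn9a 0.83, and Scn3a and Scn3b 0.81. Between the blocs the values were mostly negative, down to -0.80 for Scn3b with Scn4b and for Scn3a with Scn4b, while Scn1a with Scn2a had 0.00. After the group means were removed Scn1a with Scn2a had -0.31, and the other pairs named here kept their sign, with 0.88 for Scn1a and Scn8a, 0.82 for Scn2a and Scn3b and -0.79 for Scn3b and Scn4b. These are descriptions over libraries that share tissue makeup and scaling to a common total.

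**Figure D3:**
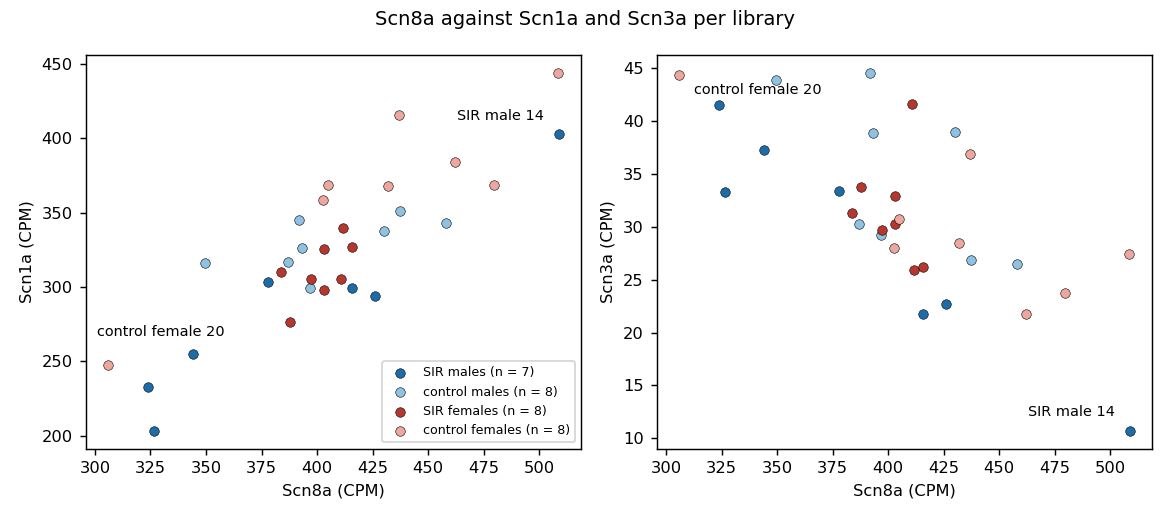
CPM of Scn8a (horizontal axis) against Scn1a (left) and Scn3a (right), with a point per library coloured by group. Scn1a rises with Scn8a and Scn3a falls with it. SIR male 14 has the highest Scn8a and the lowest Scn3a, and control female 20 the lowest Scn8a. Control female 30 lies beside SIR male 14 in Scn8a, with a higher Scn1a.

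The blocs went with different markers of the tissue. Scn8a had an r of 0.79 with the summed thalamic relay neuron markers and 0.80 with the pan-neuronal markers, and Scn2b had 0.74 and 0.70. Scn9a had an r of 0.90 with the summed hypothalamus markers, Scn3a 0.73, Scn3b 0.61 and Scn2a 0.39, whereas Scn8a had -0.73, Scn4b -0.68 and Scn1a -0.66. Scn2a was farther from 0 with the endothelial (-0.67), cortical or hippocampal (-0.65) and mural (-0.63) markers. SIR male 14 had the lowest hypothalamus marker sum of the 31 libraries (4.65 CPM over the 5 measured markers) and a high relay neuron sum (3667.1 CPM). It was the lowest library in Scn2a (137.1 CPM), Scn3a (10.7 CPM), Scn9a (2.37 CPM) and Scn3b (35.1 CPM), and among SIR males the highest in Scn1a (402.5 CPM), Scn8a (508.8 CPM) and Scn4b (343.2 CPM). Control female 20 had 349.5 CPM of hypothalamus markers, the highest of its group, the lowest relay neuron sum of all (1931.8 CPM), and the lowest Scn8a (305.9 CPM) and Scn4b (133.1 CPM). How much of each gene came from neighbouring tissue was not tested.

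**Figure D4:**
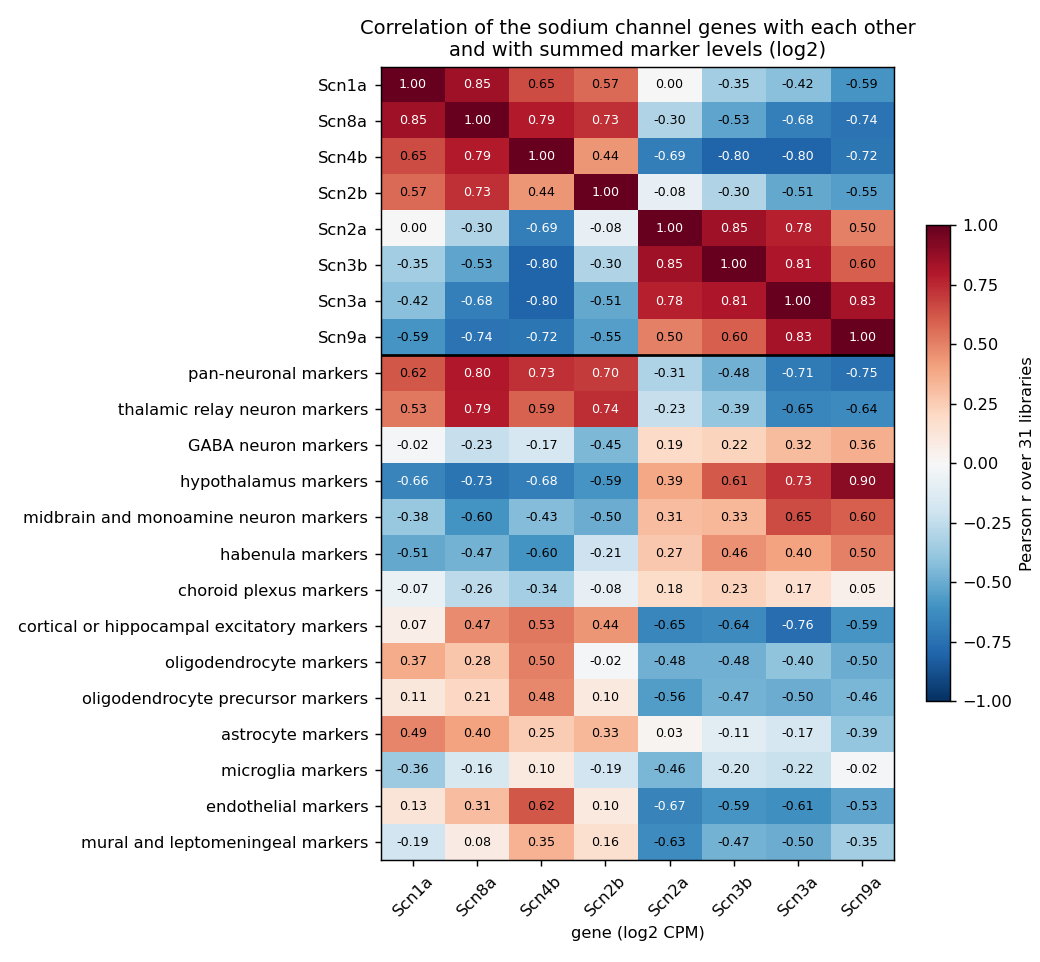
Pearson r over 31 libraries between log2 CPM of each gene (columns) and of each other gene (above the line) or the log2 of the summed CPM of 14 marker lists (below the line). Scn1a, Scn8a, Scn4b and Scn2b form a block that goes with pan-neuronal and relay neuron markers, and Scn2a, Scn3b, Scn3a and Scn9a form another whose r with hypothalamus markers runs from 0.39 (Scn2a) to 0.90 (Scn9a).

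The genes whose log2 CPM was most like each sodium channel gene, among 13542 genes with a mean of at least 1 CPM, differed between the blocs. Scn1a was closest to Kcna1 and Kcna2, the subunits of axonal potassium channels (r = 0.94 for both), and to the GABA receptor subunit gene Gabrb2 (0.93). Scn8a was closest to Fam168a (0.95), Slc24a2, a sodium-calcium-potassium exchanger (0.93), and Atp2b2, a calcium pump (0.92). Scn4b was close to the neurofilament gene Nefm (0.94) and to Srxn1 (0.90), and Scn2b to the clathrin adaptor gene Ap2b1 (0.85). Scn2a was closest to Grm5, a glutamate receptor (0.92), Nexmif (0.91) and Dync2h1 (0.89). Scn3b was closest to the RNA-binding protein gene Celf4 (0.93), Scn3a to Cd200 (0.94), Pnma2 (0.94) and the kappa opioid receptor gene Oprk1 (0.93), and Scn9a to Gpx3 (0.96), Celf6 (0.95) and Irs4 (0.95).

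Of the 8 genes, 60 transcript models were matched and 34 passed the filter. Scn1a-204 took 50.3% of the TPM of its gene, Scn1a-203 25.2% and the short model Scn1a-207 17.7%. Scn2a was split between Scn2a-201 (47.2%), Scn2a-205 (29%) and Scn2a-202 (16.7%). A single model held most of the level in Scn8a (Scn8a-205, 86.4%), Scn2b (Scn2b-202, 90.9%), Scn3a (Scn3a-202, 85.8%) and Scn4b (Scn4b-201, its only model). Scn3b was carried by Scn3b-201 (60.3%) and Scn3b-203 (21.7%), and Scn9a by Scn9a-202 (55.5%) and Scn9a-203 (26.8%).

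No transcript model of the 8 genes passed an edgeR or limma-voom test of its own level, with 0.0267% of all transcripts called in males, 0.274% in females and 0.177% over both sexes. Of the 34 models, 3 had an unadjusted edgeR p under 0.05 in males, 1 in females and 5 over both sexes. In males the 3 models of Scn2a had log2 fold changes of -0.71 ± 0.23 (Scn2a-205, edgeR adjusted p = 0.243), -0.28 ± 0.19 (Scn2a-201, 0.763) and -0.16 ± 0.71 (Scn2a-202, 0.996). Scn2a-205 stood at 7.06, 9.53 and 21.4 TPM in SIR males (lowest, median, highest) and at 11.9, 21.6 and 32.9 TPM in control males, with overlapping ranges. It took 23.6% ± 6.64 of the Scn2a TPM in SIR males and 30.9% ± 8.04 in control males, and 27.7% ± 5.13 in SIR females and 30.7% ± 6.74 in control females (SD). Over both sexes Scn1a-203, Scn1a-204 and Scn1a-207 had log2 fold changes of -0.24 ± 0.09, -0.27 ± 0.10 and -0.20 ± 0.10, with edgeR adjusted p-values of 0.292, 0.276 and 0.464.

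The usage test asks whether a model moved differently from the other models of its gene, and with diffSpliceDGE Scn8a-203 was the only model of the 8 genes that passed. It has the coding sequence length of Scn8a-205 (5934 bases) but another first exon and a last exon of 2070 instead of 6389 bases. It was listed at 0 TPM in all 7 SIR males. Among control males it had a lowest, median and highest value of 0, 0.74 and 4.47 TPM, with 4 of 8 libraries at 0.01 TPM or more. SIR females had 0, 0.06 and 2.54 TPM and control females 0, 4.49 and 10.5 TPM. The share of the Scn8a TPM was 0% in SIR males and 2.02% ± 2.41 in control males, and 0.89% ± 1.51 in SIR females and 6.01% ± 4.75 in control females (SD). Its usage was lower in SIR males (diffSpliceDGE adjusted p = 0.000233, with 0.404% of all models called and 0.246% called lower) and over both sexes (1.17e-05, with 0.500% called and 0.290% called lower), and did not pass in females (0.613, with 0.227% called). In all 31 fits with a library left out it passed in males and over both sexes, but limma diffSplice did not call it in males (adjusted p = 0.917) or over both sexes (0.659). The models limma called were others, Scn1a-201 (adjusted p = 0.0399) and Scn8a-204 (0.0344) in males and Scn8a-204 (0.0235) over both sexes, all with higher usage in SIR offspring. In diffSpliceDGE the male usage of Scn1a-201 had an adjusted p of 0.0585 and passed with each of 7 libraries left out (0.0136 to 0.0493), and that of Scn8a-204 had 0.87. A count of 0 in SIR males allows up to 3 counts, which is 0.119 to 0.158 CPM, for counting error only; the estimated counts come from a division of reads between near-identical models, and the error of that division is not in these values.

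Among other sodium channel genes, neither Scn7a nor Nalcn passed in either sex or over both; Scn4a, Scn10a and Scn11a did not pass the filter. Nalcn, a leak channel that is open at rest, had 124.7 ± 9.14 CPM in SIR males and 144.9 ± 12.2 CPM in control males (log2 fold change -0.22 ± 0.06, edgeR adjusted p = 0.0522).

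The intracellular FGF proteins bind the tail of the channels and set their inactivation. Of the 4 genes, Fgf14 alone passed in a housing comparison, lower over both sexes, where 2.80% of all genes were called lower (log2 fold change -0.18 ± 0.05, edgeR adjusted p = 0.0335), with 26.8 ± 2.12 CPM in SIR males and 30.5 ± 3.29 CPM in control males, and 27.6 ± 1.70 CPM in SIR females and 31.1 ± 3.79 CPM in control females. Fgf12 had a log2 fold change of -0.20 ± 0.08 in males that did not pass (edgeR adjusted p = 0.151), and Fgf11 and Fgf13 passed in none. Over both sexes the median log2 fold change of the 4 was -0.09, beside -0.006 over all genes.

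Of 15 anchors of the axon initial segment and node, 3 passed over both sexes, beside 4.56% of all genes. Ank2, an ankyrin of the axon, was lower (-0.14 ± 0.03, edgeR adjusted p = 0.0214), as was the adhesion gene Nrcam (-0.12 ± 0.03, 0.0362), and Bcan, a proteoglycan of the node's matrix, was higher (0.15 ± 0.04, 0.0377). Ank2 also passed in males (-0.20 ± 0.05, edgeR adjusted p = 0.0331), at 731.4 ± 70.1 CPM in SIR males and 838.9 ± 43.0 CPM in control males. Hapln2, a link protein of the node made by oligodendrocytes, was lower in SIR females (-0.32 ± 0.09, edgeR adjusted p = 0.0364) and had a male minus female difference of 0.54 ± 0.13 (edgeR adjusted p = 0.0154). Ank3, the organiser of the initial segment that binds sodium channels directly, stood at -0.13 ± 0.04 over both sexes (edgeR adjusted p = 0.0770).

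Of 12 genes of channel turnover and modulation, Camk2d alone passed in a housing comparison. This calcium-dependent kinase gene was lower in SIR males, where 1.05% of all genes were called lower (135.6 ± 8.22 CPM, against 154.3 ± 10.7 CPM in control males; log2 fold change -0.19 ± 0.05, edgeR adjusted p = 0.0448), with a male minus female difference of -0.27 ± 0.07 (edgeR adjusted p = 0.0192). Of 10 RNA regulators of sodium channel transcripts, Celf4, which binds sodium channel messages in mouse brain, was higher in SIR females, where 2.39% of all genes were called higher (346.6 ± 18.5 CPM, against 294.1 ± 18.3 CPM in control females; 0.24 ± 0.06, edgeR adjusted p = 0.0268), with a difference of -0.38 ± 0.09 (edgeR adjusted p = 0.0154). None of 5 potassium channel genes of the node and initial segment passed in a housing comparison. In males the log2 fold change of Kcna2 was -0.11 (edgeR adjusted p = 0.524). Kcna1, the most like Scn1a over libraries, had a log2 fold change of -0.24 ± 0.09 over both sexes (edgeR adjusted p = 0.1).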

How the data were processed

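Per the submitters' processing notes, FastQC and kallisto were used with the build GRCm39; their versions are not given in the sources used here. For every one of 105878 transcripts the deposited tables hold the length, effective length, estimated count and TPM, per the file headers. Estimated counts as deposited were fractional and not scaled between libraries. TPM as deposited by the authors is relative to effective length and to the library's sum. Effective length is a signal-type column of the deposited tables, used in an alternative. No source states whether kallisto took account of strand, so genes that overlap are uncertain.

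Identifiers were looked up in GENCODE M21 (GRCm38) for names, chromosomes and transcript sequences only. The match covered 99.07% of transcripts; the remaining 982 held 0.70% to 0.76% of a library's counts. Gene counts are rounded sums over transcripts. edgeR 4.0.16 in R 4.3.3 was run with filterByExpr, TMM scaling and the robust quasi-likelihood test, with a mean for each of 4 groups over all 31 libraries, and p-values were adjusted by Benjamini-Hochberg over all genes at 0.05. The model was also fitted to 41269 transcripts, with diffSpliceDGE for usage. CPM uses TMM-scaled totals, and correlations use log2 CPM with a prior count of 2. The share of the Scn1a exon was compared by exact permutation of libraries. Groups come from the sample titles. In all 105 within-group pairs of libraries the counts differed beyond sampling noise, and p-values measure the spread between these samples. Alternatives used limma 3.58.1 and DESeq2 1.42.0. Scripts were tested on simulated data.

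The genes, lists and tests were chosen with earlier results of these data known. All 8 genes were named in each comparison. Of other lists, those that passed over both sexes, in males or in females were named, otherwise the 2 with the smallest male p; Ank3, Kcna1 and Fgf12 were added after their values were seen. Transcripts were named at 10% of their gene's TPM or if they passed a test. Some genes and sequences are not reported here.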

Additional observations from a re-analysis of the deposited data

Results flagged for a closer look

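Control female 20 stood apart from the other 7 control females in 3 of the 8 genes. Its Scn1a level was 247.7 CPM, below the 358.7 to 444.0 CPM of the others. Its Scn4b level was 133.1 CPM, below their 213.3 to 279.9 CPM, and its Scn9a level was 18.2 CPM, above their 3.41 to 10.4 CPM. The same library had 1773.9 CPM of choroid plexus markers and 349.5 CPM of hypothalamus markers, both the highest of its group; their part in these levels was not tested.

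In control male 19 the Scn1a model with the 64-base exon took 3.79%, above the 0.42% to 1.89% of the other control males. In all, 36 combinations of group and measure were examined by Dixon's test at its 95% critical value and 4 values stood apart, where about 1 in 20 would by chance.

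The SIR effect on Scn2a differed between the sexes, at -0.49 on the log2 scale (male minus female effect, edgeR adjusted p = 0.0244).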

How the results depend on the processing

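No paired analysis was possible because every library has its own replicate number and the groups share none. Under the alternatives that keep all libraries or leave out chosen ones, 480 of 536 gene results kept their direction and side of the threshold, 7 lost the threshold, 15 gained it and 34 changed direction; with each library left out in turn it was 1190, 8, 10 and 32 of 1240. The causes of the changes below were not tested.

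In males the count of sodium channel genes called was 1, but 0 with no filter on low counts, with the length trend removed and with only the 2 groups compared, and 2 with limma-voom; leaving out each library gave 0 to 1. Over both sexes the count was 0, but 1 with a filter of 1 CPM, DESeq2, limma-voom, log2(TPM + 1), log2(TPM + 0.1) and a threshold of 0.1, and 0 to 1 with a library left out. For the difference between the sexes it was 1, but 2 with DESeq2, limma-voom, a threshold of 0.1 and without the 2 shallowest libraries, 0 with log2(TPM + 1), log2(TPM + 0.1), effective length offsets and without the 8 libraries numbered apart, and 1 to 2 with a library left out. In females it was 0, but 3 with limma-voom, and 0 to 1 with a library left out. By sex it was 0, but 1 with limma-voom, and 0 to 1 with a library left out. Transcript usage in males gave 1 call, but 2 with limma diffSplice, both other models, and 1 to 2 with a library left out.

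Some log2 fold changes that did not pass a test changed direction. Over both sexes that of Scn9a was 0.005 with upper quartile scaling, 0.114 with limma-voom, 0.042 with log2(TPM + 1), 0.055 with log2(TPM + 0.1), 0.087 with effective length offsets and 0.057 with the length trend removed. That of Scn3b was 0.002 with upper quartile scaling, 0.061 with limma-voom, 0.004 with effective length offsets and 0.015 with the length trend removed, and that of Scn3a was 0.004 with limma-voom. With the length trend removed, Scn8a was 0.022 and Scn2b 0.021 over both sexes, Scn8a 0.076 and Scn2b 0.022 in males, Scn2b 0.020 in females and 0.002 for the difference between the sexes, and by sex Scn8a was 0.033 and Scn2b 0.012. With effective length offsets Scn9a was 0.005 in males. For the difference between the sexes, Scn1a was -0.026 with limma-voom, -0.059 with log2(TPM + 1), -0.060 with log2(TPM + 0.1) and -0.052 without the 8 libraries numbered apart, and Scn8a was -0.013, -0.024 and -0.025 with limma-voom, log2(TPM + 1) and log2(TPM + 0.1). By sex, Scn4b was -0.055 with limma-voom, and Scn3a was -0.036 with log2(TPM + 1) and -0.052 with log2(TPM + 0.1). Without the 8 libraries numbered apart, Scn4b was 0.028 over both sexes, Scn9a -0.214 in females and 0.059 for the difference between the sexes, and Scn2b 0.019 by sex. Scn2a-202 was 0.122 in males with limma-voom.

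With each library left out, direction changed within these ranges: over both sexes Scn9a -0.155 to 0.146 and Scn3b -0.044 to 0.050; in males Scn9a -0.408 to 0.056 and Scn2a-202 -0.365 to 0.062; in females Scn3a -0.003 to 0.171, Scn9a -0.015 to 0.409 and Scn2b -0.030 to 0.008. For the difference between the sexes Scn1a ran from -0.064 to 0.107 and Scn8a from -0.038 to 0.096, and by sex Scn3a from -0.014 to 0.116 and Scn4b from -0.052 to 0.049. The 64-base share of Scn1a in females ran from -0.006 to 0.350 points. A model listed at 0 in a library may have had up to 3 counts, 0.117 to 0.231 CPM depending on the library's depth. Litter and handling order are not given in the sources used here.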

Other observations

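By labelled sex, partner genes of the sodium channels differed where the channel genes did not pass. Of 15 anchors of the initial segment and node, 7 were lower in males (edgeR, Ank3, Ank2, Nfasc, Nrcam, Cntn2, Tnr and Hapln2), beside 5.65% of all genes called lower. Hapln2 had the male minus female log2 difference -0.28 ± 0.06 (SE, edgeR adjusted p = 0.0064). Of 5 potassium channel genes Kcna1 was lower in males (-0.27 ± 0.09, edgeR adjusted p = 0.0390). Camk2b, a kinase gene of the turnover and modulation list, was higher in males (0.10 ± 0.03, edgeR adjusted p = 0.0495). Of 10 oligodendrocyte markers 4 were also lower in males, and their part in these differences was not tested.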
